A study of Homo sapiens with 12 samples.

Results

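The subunit genes of the mitochondrial respiratory chain and of ATP synthase were examined across all 12 arrays. Members were chosen by gene symbol: those beginning NDUFA, NDUFB, NDUFC, NDUFS, NDUFV, UQCR, COX4 to COX8 or ATP5, together with the SDH genes, CYC1 and COXFA4L2 (older symbol NDUFA4L2), with NDUFAF assembly factors left out. This gave 70 of the 11963 genes that a probe set naming 1 gene represents, of which 29 belong to complex I, 3 to complex II, 7 to complex III, 14 to complex IV and 17 to complex V. The symbols also bring in NDUFB2-AS1, an antisense transcript, and ATP5MC2P1, a pseudogene, and both are kept in the counts. SDHB, UQCRFS1, UQCRH, COX4I2, COX6B2, COX7B2 and COX8C are not analysed here.

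RCC4 is an established line from a clear cell renal carcinoma without functional VHL. The series set RCC4 cells reconstituted with VHL (VHL) against RCC4 cells with the vector (Vec), and cystine-deprived DMEM for 6 h with 10% dialysed serum against full DMEM with 10% serum, 3 arrays per group: VHL deprived, VHL control, Vec deprived and Vec control. The labels number the arrays as biological replicates but do not say that they came from separate cultures, so p-values measure the spread between these samples. They name dialysed serum for the deprived medium alone, so loss of cystine and a change of serum cannot be told apart. The labels do not tell whether each line is a clone or a pool, and all groups derive from RCC4. The title concerns cystine dependence of VHL-deficient cells, so the comparisons ask how VHL and cystine loss bear on these genes.

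Electrons enter the chain at complex I (NADH dehydrogenase) or complex II (succinate dehydrogenase), pass through complex III and cytochrome c to complex IV (cytochrome c oxidase), and the proton gradient they build drives ATP synthase, complex V. VHL marks hypoxia-inducible factors (HIF) for destruction, and without it HIF stays active and is known to shift clear cell carcinoma cells from respiration towards glycolysis. COXFA4L2 is a known HIF target, while the nuclear factors NRF1 and GABP, an ETS family member, are known activators of many respiratory genes. Transcripts of the mitochondrial genome's own subunits are not among the members.

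Promoter windows running from 250 bases before to 50 bases after the outermost annotated start were taken from RefSeq (GRCh38.p14), and 56 of the 70 members matched one. The sequences of COXFA4L2 and of COXFA4 (older symbol NDUFA4, its paralogue, outside the symbols used here) are shown because the pair differed in opposite directions between the lines in control medium, and that of SDHD because it holds the NRF1 core. Capitals mark the hypoxia response element core ACGTG or GCGTG in the COXFA4L2 window, chr12:57240713-57241012 on the minus strand, which has 2 matches, starting 204 and 20 bases before the start. The COXFA4 window, chr7:10940104-10940403 on the minus strand, has 0 matches. In the SDHD window, chr11:112086623-112086922 on the plus strand, capitals mark the NRF1 core GCGCATGC, whose 2 matches, on opposite strands, overlap.
COXFA4L2: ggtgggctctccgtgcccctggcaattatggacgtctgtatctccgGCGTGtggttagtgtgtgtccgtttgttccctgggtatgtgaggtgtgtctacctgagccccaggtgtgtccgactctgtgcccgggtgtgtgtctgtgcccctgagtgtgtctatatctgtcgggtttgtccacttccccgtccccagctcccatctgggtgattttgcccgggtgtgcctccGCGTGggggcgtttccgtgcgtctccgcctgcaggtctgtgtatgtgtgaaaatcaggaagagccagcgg
COXFA4: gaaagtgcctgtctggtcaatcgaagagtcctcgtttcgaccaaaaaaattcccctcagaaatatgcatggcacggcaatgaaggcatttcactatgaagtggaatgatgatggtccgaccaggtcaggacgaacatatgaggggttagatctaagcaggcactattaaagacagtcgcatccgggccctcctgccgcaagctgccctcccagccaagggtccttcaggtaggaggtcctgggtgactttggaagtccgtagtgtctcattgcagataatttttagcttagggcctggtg
SDHD: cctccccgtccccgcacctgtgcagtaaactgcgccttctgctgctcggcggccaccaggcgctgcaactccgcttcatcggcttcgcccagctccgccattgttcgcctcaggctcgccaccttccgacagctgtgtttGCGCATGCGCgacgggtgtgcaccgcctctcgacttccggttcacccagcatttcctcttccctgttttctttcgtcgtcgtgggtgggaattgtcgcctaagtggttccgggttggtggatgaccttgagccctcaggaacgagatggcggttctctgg

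Counted on both strands, the hypoxia response element core was present in 31 of the 56 member windows (55.4%), against 56.4% of the 13819 windows of protein-coding genes. The NRF1 core was present in 10 member windows (17.9%), against 4.46% of all windows. CGGAAG, the core bound by ETS factors, was present in 23 (41.1%), against 26.2% of all windows. A match is a description of these letters only. The members with an NRF1 core were ATP5F1C, ATP5ME, COX5B, COX6A1, NDUFA6, NDUFA8, NDUFB4, NDUFS6, NDUFS7 and SDHD.

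Values are log2 expression values as deposited, and genes count as called at a limma adjusted p under 0.05, taken over all 11963 genes. Differences are on the log2 scale with the standard error of the fit after ±, and n = 3 arrays per group throughout. Member transcripts were bright: 66 of 70 lay above the median gene mean of 7.82, and COX7A1 and ATP5MC2P1 alone lay at or under 6.47. That dim limit bounds the 3988 genes with the lowest means and is not a measured background. The probe set for VHL itself was dim in all groups, with values between 5.80 and 6.07, and was not called between the lines (0.14 ± 0.05 in control medium and -0.05 ± 0.05 in deprived medium), and because its position in the transcript is unknown it does not check the labels. CHAC1, SLC7A11, ASNS and CTH, known genes of the response to amino acid shortage, were called higher in deprived than in control medium in both lines. Of 10 measured renal markers, PAX8, KRT18 and VIM were bright and the proximal tubule receptors LRP2 and CUBN dim. Between the lines, 1 of the 10 was higher and 5 were lower in VHL cells in deprived medium, and 0 were higher and 3 lower in control medium, where 47.2% and 46.1% of all genes were called in either direction. KRT19, KRT8 and VIM were lower in VHL cells in both media (-1.36 ± 0.06, -0.61 ± 0.05 and -0.20 ± 0.04 in control medium). In deprived medium EPCAM (-0.25 ± 0.06) and PAX8 (-0.18 ± 0.05) were also called lower and PAX2 higher (0.30 ± 0.07). The part of these markers in the differences below was not tested. None of 12 measured markers of blood cells, endothelium and fibroblast or smooth muscle was called by limma between the lines, with 0 at an unadjusted p under 0.05 in control medium and 1 in deprived medium.

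VHL cells differed from Vec cells in most subunit genes, mostly upwards and by small amounts. In control medium 52 of 70 members (74.3%) were called, 39 higher and 13 lower in VHL cells, where 46.1% of all genes were called, 23.1% higher and 23% lower. In deprived medium 46 members (65.7%) were called, 35 higher and 11 lower, where 47.2% of all genes were called, 24.2% higher and 23% lower. The median difference of the members was 0.16 in each medium, while that of all genes was 0.00. The 2 comparisons set different arrays against each other but share the estimate of each gene's spread, so their calls are not independent. Members called in both numbered 44, with the same direction in each case (33 higher, 11 lower), which is 84.6% of the control calls and 95.7% of the deprived calls. Over all genes, those called in both media made up 84.4% of the control calls and 82.5% of the deprived calls. In control medium every VHL array lay above every Vec array for 41 members and below for 17 (82.9%, against 53.2% of all genes). The median standard error was 0.05 for members and 0.07 for all genes, and its part in the share of calls was not tested.

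Taken array by array, the median deviation of the members from their own 12-array mean lay between 0.06 and 0.11 on the 6 VHL arrays, and between -0.11 and -0.06 on the 6 Vec arrays. No array of either line crossed the other line's range, in either medium. For all genes these medians lay between -0.03 and 0.03.

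COXFA4L2 showed the largest fall of all 11963 genes in VHL cells in both media. Its values were 6.34, 6.41 and 6.72 on VHL arrays, against 12.22, 12.16 and 12.17 on Vec arrays, in control medium. They were 6.92, 6.71 and 6.37 on VHL arrays, against 12.17, 12.17 and 12.17 on Vec arrays, in deprived medium. The line groups were thus far apart, and the VHL values lay close to the dim limit of 6.47. Background signal may bound the measured fold, which was not tested. The difference was -5.69 ± 0.12 in control medium (limma adjusted p = 6.13e-13), a 51.6-fold lower value in VHL cells, and -5.50 ± 0.12 in deprived medium (limma adjusted p = 8.93e-13). Its paralogue COXFA4, a subunit of cytochrome c oxidase, read 12.70, 12.59 and 12.51 on VHL arrays, against 12.18, 12.34 and 12.21 on Vec arrays, in control medium. In deprived medium COXFA4 read 12.23, 12.49 and 12.57 on VHL arrays, against 12.21, 12.25 and 12.27 on Vec arrays. The groups overlapped in deprived medium and were separate in control medium, where COXFA4 was higher in VHL cells (0.36 ± 0.08, limma adjusted p = 0.0024). The deprived difference, 0.19 ± 0.08, was not called (limma adjusted p = 0.0769).

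**Figure D1:**
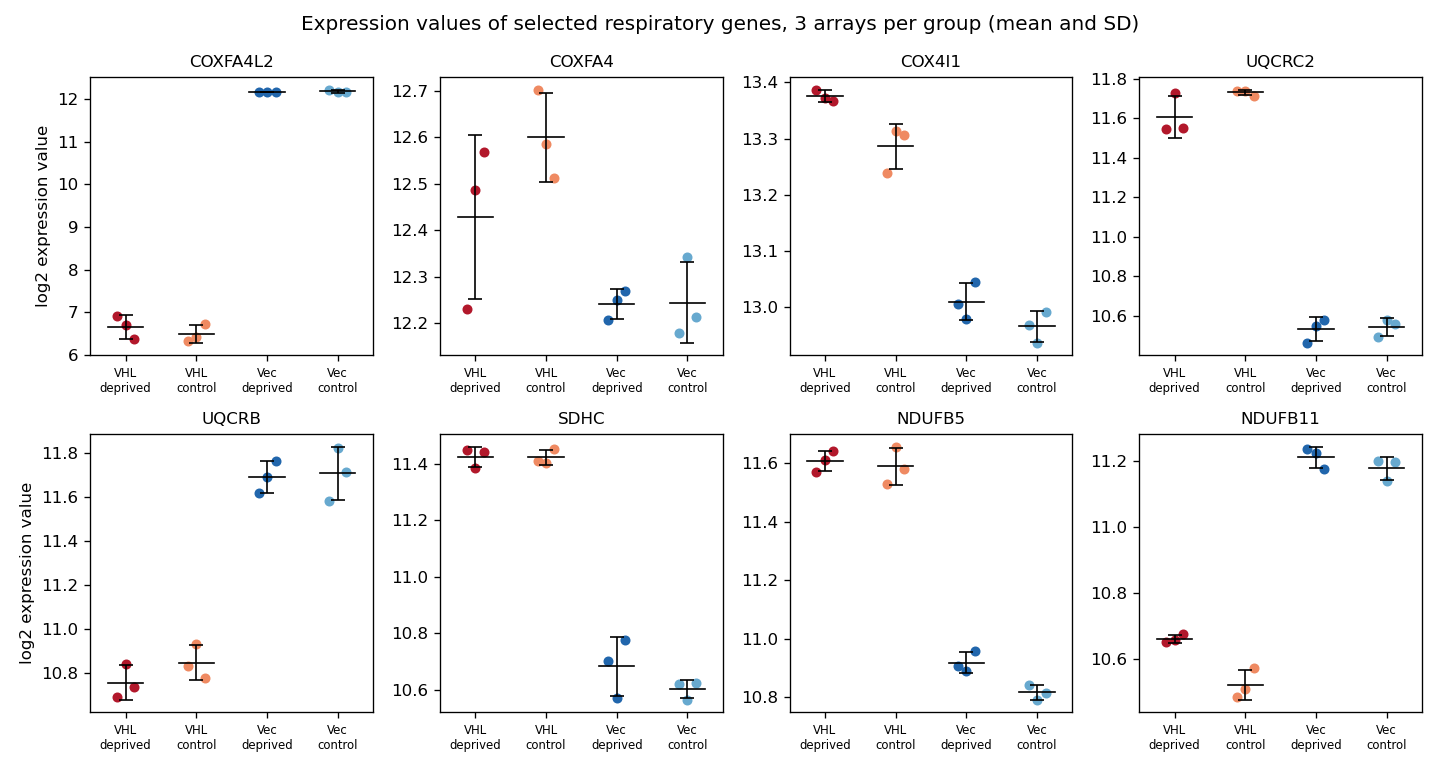
Log2 expression values on each array for COXFA4L2, COXFA4, COX4I1, UQCRC2, UQCRB, SDHC, NDUFB5 and NDUFB11. Points are arrays, 3 per group, bars are the mean and SD, and the vertical axes start above 0 and differ between panels. COXFA4L2, UQCRB and NDUFB11 are low on the 6 VHL arrays, and UQCRC2, SDHC, NDUFB5 and COX4I1 are high on them.

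Complex I, which oxidises NADH, had 15 members higher and 8 lower in VHL cells of 29 in control medium, and 15 higher and 6 lower in deprived medium. The higher members were 51.7% in each medium, against 23.1% of all genes in control and 24.2% in deprived medium. The lower members were 27.6% and 20.7%, near the 23% of all genes in each medium. The largest rise in control medium was that of NDUFB5, an accessory subunit of the distal membrane arm, which read 11.53, 11.66 and 11.58 on VHL arrays, against 10.84, 10.79 and 10.82 on Vec arrays, in control medium. In deprived medium NDUFB5 read 11.57, 11.61 and 11.64 on VHL arrays, against 10.91, 10.89 and 10.96 on Vec arrays. All VHL arrays exceeded all Vec arrays, with differences of 0.77 ± 0.05 in control (limma adjusted p = 1.83e-08) and 0.69 ± 0.05 in deprived medium. NDUFB11, another accessory subunit of the same arm, went the other way: 10.49, 10.51 and 10.57 on VHL arrays, against 11.20, 11.14 and 11.20 on Vec arrays, in control medium. NDUFB11 in deprived medium read 10.65, 10.66 and 10.68 on VHL arrays, against 11.23, 11.22 and 11.18 on Vec arrays. The differences were -0.66 ± 0.04 (limma adjusted p = 4.35e-08) and -0.55 ± 0.04, with no overlap.

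NDUFB1, also of the distal arm, read 12.06, 12.02 and 12.002 on VHL arrays, against 11.34, 11.42 and 11.35 on Vec arrays, in control medium. In deprived medium NDUFB1 read 11.91, 11.96 and 12.03 on VHL arrays, against 11.26, 11.24 and 11.26 on Vec arrays. Its differences of 0.66 ± 0.05 and 0.71 ± 0.05 were both called, without overlap. NDUFA3, an accessory subunit of the proximal membrane arm, read 11.40, 11.49 and 11.39 on VHL arrays, against 10.78, 10.78 and 10.81 on Vec arrays, in control medium. NDUFA3 in deprived medium read 11.42, 11.41 and 11.35 on VHL arrays, against 10.79, 10.87 and 10.88 on Vec arrays. It was higher by 0.64 ± 0.05 and 0.55 ± 0.05, again without overlap. NDUFS1, the largest subunit of the NADH-oxidising N module and a carrier of iron-sulfur clusters, read 10.37, 10.44 and 10.35 on VHL arrays, against 9.87, 9.93 and 9.81 on Vec arrays, in control medium. In deprived medium NDUFS1 read 10.28, 10.30 and 10.23 on VHL arrays, against 9.81, 9.86 and 9.93 on Vec arrays. The gap was 0.52 ± 0.05 in control medium and 0.40 ± 0.05 in deprived medium, and the groups were apart in each.

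Rises and falls in complex I were spread over its modules, a grouping made with the values known. In control medium the N module had 3 of 6 members higher and 2 lower, the quinone-binding Q module 3 of 5 higher and 0 lower, the proximal membrane arm 4 of 6 higher and 2 lower, and the distal arm 4 of 9 higher and 3 lower. There 23.1% of all genes were higher and 23% lower, and no module was tested against these shares. In the N module, NDUFS4 was higher by 0.49 and NDUFS6 by 0.40 in VHL cells in control medium, while NDUFV1, which binds the flavin that accepts electrons from NADH, was lower (-0.21) and so was NDUFA2 (-0.13). NDUFV1 was not called in deprived medium (-0.12), nor was NDUFA2 (-0.09). In the Q module NDUFA9 was higher by 0.33, NDUFA7 by 0.15 and NDUFA5 by 0.46 in control medium, whereas NDUFS7, which carries the cluster next to the quinone site, was called in deprived medium (0.26) and not in control medium (0.12). NDUFA7 (0.10) and NDUFA5 (0.03) were not called in deprived medium. The calls of NDUFA2, NDUFA5 and NDUFA7 in control medium were each lost without any 1 of 4 arrays, with limma adjusted p reaching 0.146, 0.109 and 0.159. Those arrays were Vec control replicates 1 and 3 and VHL control replicates 1 and 2 for NDUFA2 and NDUFA5, and Vec control replicates 1 and 2 and VHL control replicates 1 and 3 for NDUFA7.

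Further along the membrane arms of complex I, NDUFA1 (0.26), NDUFA10 (0.24) and NDUFA13 (0.21) were higher in VHL cells in control medium, and NDUFC1 (-0.41) and NDUFA8 (-0.27) were lower. Among distal arm members NDUFB3 (0.31) and NDUFB2 (0.26) were higher, and NDUFB8 (-0.45) and NDUFB6 (-0.30) lower. All 9 were also called in deprived medium, in the same directions, NDUFB8 at -0.41 and NDUFC1 at -0.39. NDUFAB1, the mitochondrial acyl carrier protein, was higher by 0.40 in control and 0.48 in deprived medium, while its complex I partner NDUFA6 was lower by about the same amount in each medium (-0.24). The antisense transcript NDUFB2-AS1 was called higher in deprived medium (0.29), a call lost without Vec deprived replicate 3 or VHL deprived replicate 1 (limma adjusted p = 0.0517 and 0.0571). NDUFS3, NDUFV2, NDUFB4 and NDUFB7 were called in neither medium, with differences between -0.10 and 0.11.

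All 3 measured subunits of complex II, the enzyme that also oxidises succinate in the citric acid cycle, were higher in VHL cells in both media. The share of all genes higher was 23.1% in control and 24.2% in deprived medium. SDHC, a membrane anchor, read 11.41, 11.40 and 11.45 on VHL arrays, against 10.62, 10.56 and 10.62 on Vec arrays, in control medium. In deprived medium SDHC read 11.45, 11.38 and 11.44 on VHL arrays, against 10.70, 10.57 and 10.78 on Vec arrays. SDHC was higher by 0.82 ± 0.05 with full medium (limma adjusted p = 3.8e-08), against 0.74 ± 0.05 without cystine, and its 4 probe sets ranged from 0.78 to 0.84 in control medium. SDHD, the other anchor, read 11.07, 10.92 and 10.86 on VHL arrays, against 10.17, 10.35 and 10.14 on Vec arrays, in control medium. SDHD in deprived medium read 10.56, 10.81 and 10.66 on VHL arrays, against 10.03, 10.00 and 10.16 on Vec arrays. The anchors were high on every VHL array, SDHD by 0.73 ± 0.08 and 0.61 ± 0.08. SDHA, the flavoprotein, was higher by 0.24 ± 0.04 and 0.32 ± 0.04.

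Complex III carried the largest rise among the members and, after COXFA4L2, the largest fall, with 2 higher and 2 lower of 7 in each medium. Each direction thus held 28.6% of its members, near the shares of all genes, which were 23% to 24.2% by direction and medium. UQCRC2, a core protein, read 11.74, 11.74 and 11.71 on VHL arrays, against 10.49, 10.58 and 10.56 on Vec arrays, in control medium. UQCRC2 in deprived medium read 11.54, 11.73 and 11.55 on VHL arrays, against 10.46, 10.55 and 10.58 on Vec arrays. The rise was 1.19 ± 0.06 in control (limma adjusted p = 1.81e-09) and 1.07 ± 0.06 in deprived medium, and another UQCRC2 probe set gave 1.35 and 1.25. UQCRB, a small subunit near the ubiquinone site, read 10.83, 10.93 and 10.77 on VHL arrays, against 11.58, 11.82 and 11.71 on Vec arrays, in control medium. In deprived medium UQCRB read 10.69, 10.84 and 10.73 on VHL arrays, against 11.62, 11.69 and 11.76 on Vec arrays. The fall was -0.86 ± 0.07 (limma adjusted p = 2.81e-07) and -0.94 ± 0.07, with all 3 UQCRB probe sets lower in VHL cells (-0.86, -1.30 and -0.85 in control medium).

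Thus transcripts of subunits of the same enzyme differed in direction between the lines. UQCRC1, the partner core protein of UQCRC2, was lower by -0.21 ± 0.05 in control and -0.24 ± 0.05 in deprived medium, and UQCR11 was higher by 0.22 and 0.23. CYC1, which carries the haem of cytochrome c1, was not called (-0.10 and -0.02), and neither were UQCR10 and UQCRQ, with differences between -0.09 and -0.02.

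In complex IV, 8 of 14 members were higher and COXFA4L2 alone was lower in VHL cells in control medium, and 7 were higher and COXFA4L2 lower in deprived medium. The higher members were 57.1% in control and 50% in deprived medium, against 23.1% and 24.2% of all genes. The lower member was 7.14% in each, against 23%. COX4I1, the common form of a regulatory subunit, read 13.24, 13.31 and 13.31 on VHL arrays, against 12.97, 12.94 and 12.99 on Vec arrays, in control medium. In deprived medium COX4I1 read 13.39, 13.37 and 13.37 on VHL arrays, against 13.01, 12.98 and 13.04 on Vec arrays. Its rises of 0.32 ± 0.04 and 0.37 ± 0.04 were called without overlap, and its 3 probe sets ranged from 0.32 to 0.41 in control medium. COX7C, a small membrane subunit, read 13.10, 13.07 and 13.20 on VHL arrays, against 12.67, 12.74 and 12.71 on Vec arrays, in control medium. COX7C in deprived medium read 13.06, 13.20 and 13.26 on VHL arrays, against 12.64, 12.68 and 12.68 on Vec arrays. COX7C was higher by 0.42 ± 0.06 and 0.51 ± 0.06, with every VHL array above every Vec array. The others called higher in both media were COX6B1 (0.42 and 0.36), COX5A (0.38 and 0.29), COX7B (0.37 and 0.32), COX5B (0.31 and 0.34) and COX8A (0.14 and 0.22). The COX8A call in control medium rested on each of 5 arrays, being lost without Vec control replicate 2 or 3 or any VHL control array (limma adjusted p between 0.0511 and 0.14).

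Among the COX6A and COX7A isoforms, COX7A2 alone was called between the lines. COX6A1, the widely expressed form of its pair, was not called (0.07 ± 0.05 in control and 0.03 ± 0.05 in deprived medium), nor was the muscle form COX6A2 (0.04 ± 0.06 and 0.11 ± 0.06). The mean of COX6A2 over the 12 arrays was 6.77, not far above the dim limit of 6.47. COX7A1, the muscle form of its trio, was dim, with values between 5.23 and 5.50 over the 12 arrays, and was not called (-0.01 ± 0.06 and 0.07 ± 0.06). COX7A2, the widely expressed form, was called higher in VHL cells in control medium (0.23 ± 0.06) and not in deprived medium (0.11 ± 0.06). COX7A2L, known for joining complexes III and IV into supercomplexes, was not called (0.07 ± 0.05 and 0.09 ± 0.05). No difference between isoforms of a pair was tested. COX6C was not called either (0.06 and 0.04).

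**Figure D2:**
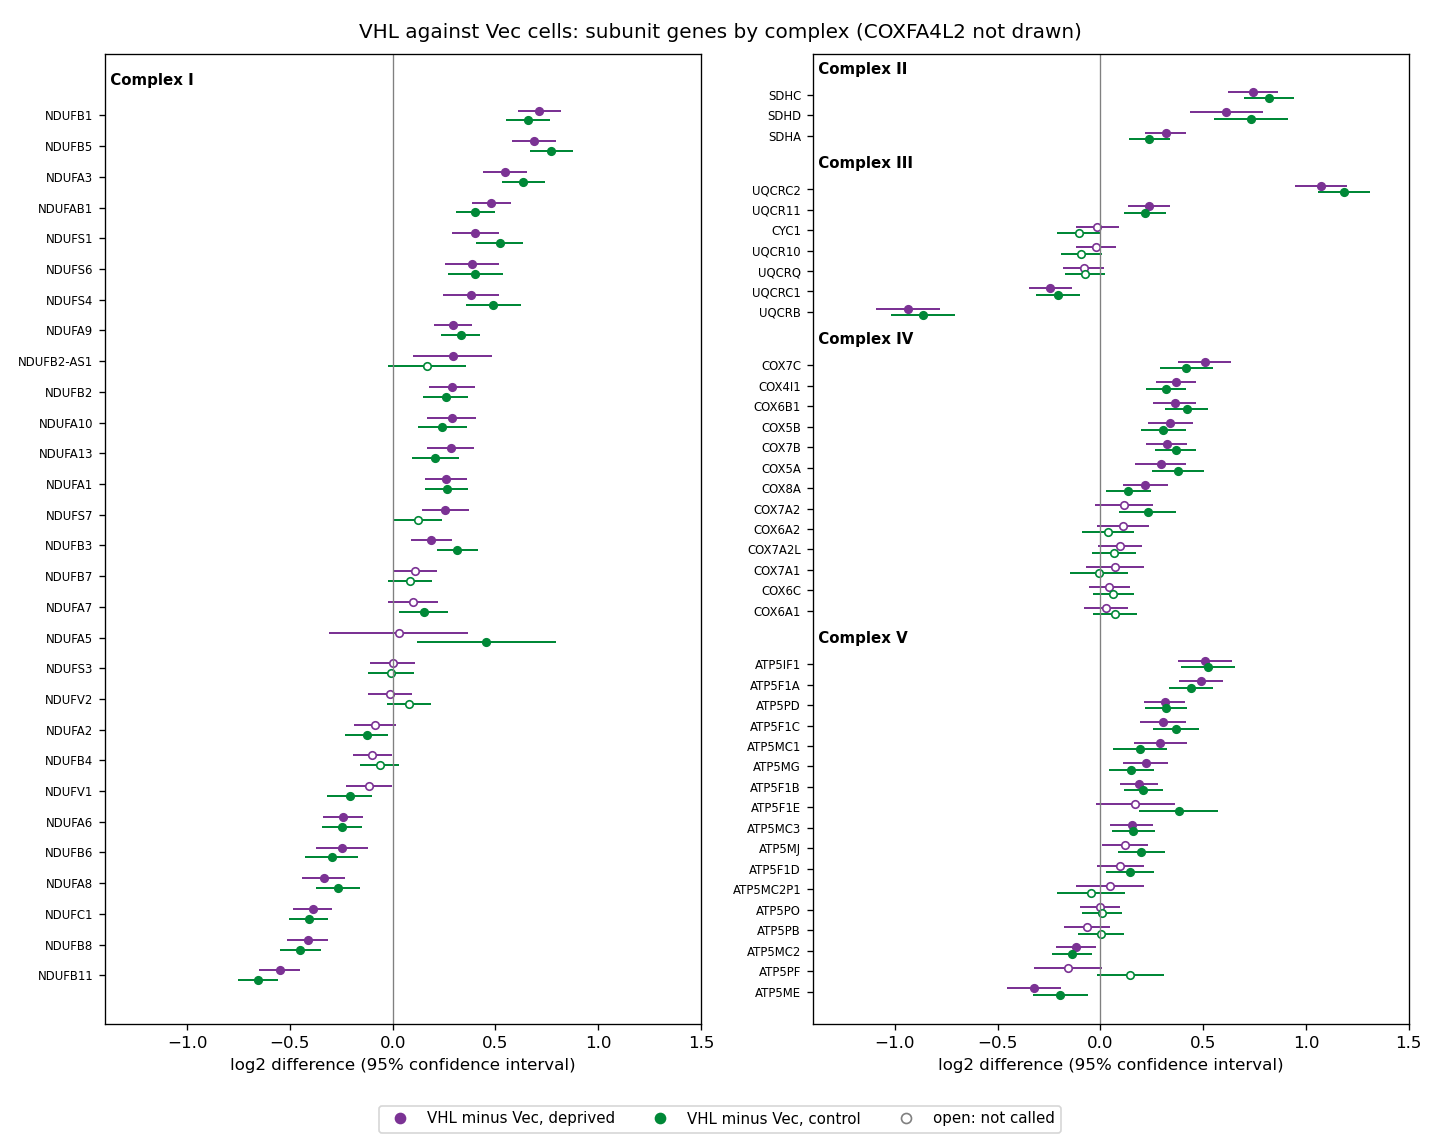
Log2 difference of VHL minus Vec cells for each member by complex, in deprived medium (upper point) and control medium (lower point), with 95% confidence intervals. Filled points are called and open points are not, and COXFA4L2 (-5.69 and -5.50) is not drawn. Complex II lies to the right of 0 as a whole, and complexes I and III hold members on both sides.

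ATP synthase had 11 of 17 members higher and 2 lower in VHL cells in control medium, and 8 higher and 2 lower in deprived medium. The higher members were 64.7% in control and 47.1% in deprived medium, against 23.1% and 24.2% of all genes. The lower members were 11.8% in each, against 23%. The catalytic F1 part had 5 of 5 subunits called higher in control medium: ATP5F1A (0.44), ATP5F1E (0.38), ATP5F1C (0.37), ATP5F1B (0.21) and ATP5F1D (0.14). In deprived medium ATP5F1A (0.49), ATP5F1C (0.30) and ATP5F1B (0.19) were called, while ATP5F1E (0.17 ± 0.09) and ATP5F1D (0.10 ± 0.05) were not. The ATP5F1D call in control medium was lost without Vec control replicate 1 or 2 or VHL control replicate 2 or 3 (limma adjusted p between 0.0716 and 0.111). A further ATP5F1D probe set, with a mean of 10.33, differed by 0.05 ± 0.06 in control medium. ATP5IF1, the inhibitor that blocks ATP hydrolysis by the enzyme, read 9.39, 9.29 and 9.22 on VHL arrays, against 8.75, 8.71 and 8.86 on Vec arrays, in control medium. ATP5IF1 in deprived medium read 9.32, 9.44 and 9.40 on VHL arrays, against 8.86, 8.87 and 8.91 on Vec arrays. The inhibitor was higher by 0.52 ± 0.06 and 0.51 ± 0.06, the largest rise in complex V in each medium, with no overlap.

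The 3 genes of the c ring, which encode the same mature protein, did not share a direction. ATP5MC1 (0.19 and 0.29) and ATP5MC3 (0.16 and 0.15) were higher in VHL cells in both media, and ATP5MC2 was lower (-0.14 and -0.12). Apart from ATP5MC1 in deprived medium, these are small differences near the threshold. The ATP5MC1 call in deprived medium held under the 20 alternatives in which it was measured. ATP5MC1 in control medium was lost without Vec control replicate 2 or VHL control replicate 3 (limma adjusted p = 0.0605 at most). ATP5MC3 was lost without VHL control replicate 3 in control medium (limma adjusted p = 0.0525) and without VHL deprived replicate 2 in deprived medium (limma adjusted p = 0.0627). ATP5MC2 was lost without VHL control replicate 3 in control medium (limma adjusted p = 0.051) and in deprived medium without any Vec deprived array or VHL deprived replicate 1 or 3 (limma adjusted p between 0.0639 and 0.118).

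Of the 4 peripheral stalk subunits, which hold the catalytic part still, ATP5PD was higher in VHL cells (0.32 and 0.31), while ATP5PB, ATP5PO and ATP5PF were not called in either medium, with differences between -0.16 and 0.15. Among small membrane subunits ATP5ME was lower (-0.19 and -0.32), ATP5MG higher (0.15 and 0.22), and ATP5MJ higher in control medium (0.20) but not called in deprived medium (0.12). In control medium the ATP5ME call was lost without Vec control replicate 3 or VHL control replicate 1 (limma adjusted p = 0.0684 at most). The ATP5MG call was lost there without Vec control replicate 2 or 3 or VHL control replicate 1 or 3 (limma adjusted p = 0.0778 at most). The pseudogene ATP5MC2P1 was dim and not called (-0.05 and 0.05).

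Cystine deprivation moved these genes little. In Vec cells 0 of 70 members were called by limma, with 6 at an unadjusted p under 0.05, where 4.18% of all genes were called. All 70 confidence intervals lay within 0.5 of 0 on the log2 scale, as did those of 11681 of all 11963 genes. The extremes were NDUFA7 at 0.14 ± 0.05 and SDHD at -0.16 ± 0.08. In the other complexes of Vec cells the extremes were UQCRC1 (0.10) and UQCR10 (-0.03) in complex III, COX6A2 (0.07) and COX5A (-0.06) in complex IV, and ATP5IF1 (0.10) and ATP5MC1 (-0.14) in complex V. COXFA4L2 differed by -0.01 ± 0.12, an error drawn from the spread of all groups. Its SD was 0.00013 on Vec deprived and 0.03 on Vec control arrays, against 0.28 on VHL deprived and 0.20 on VHL control arrays.

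In VHL cells 6 members (8.57%) were called, where 11.6% of all genes were called. NDUFS7 (0.19 ± 0.05) and NDUFV1 (0.18 ± 0.05) were higher in deprived medium, or 2.86% of members against 6.16% of all genes. ATP5PF (-0.35 ± 0.07), SDHD (-0.27 ± 0.08), NDUFB3 (-0.22 ± 0.04) and NDUFA8 (-0.20 ± 0.05) were lower, or 5.71% against 5.48%. The members' shares were thus close to or under the background. ATP5PF, known as coupling factor 6 of the peripheral stalk, read 11.63, 11.91 and 11.85 on VHL deprived arrays, against 12.23, 12.13 and 12.08 on VHL control arrays (limma adjusted p = 0.00828). In Vec cells ATP5PF read 11.86, 11.95 and 12.05 on deprived arrays, against 11.96, 12.05 and 12.01 on control arrays. Deprived and control arrays were apart in VHL cells and overlapped in Vec cells. NDUFB3 read 11.35, 11.45 and 11.42 on VHL deprived arrays, against 11.60, 11.65 and 11.64 on VHL control arrays (limma adjusted p = 0.00711). In Vec cells NDUFB3 differed by -0.09 ± 0.04 and was not called.

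The calls of SDHD, NDUFS7 and NDUFV1 depended on single arrays. NDUFS7 and NDUFV1 were lost without VHL control replicate 1 or 2 or VHL deprived replicate 1 or 3, with limma adjusted p reaching 0.117 and 0.134. SDHD was lost without any 1 of 8 of the 12 arrays, all but Vec control replicate 2, Vec deprived replicate 3, VHL control replicate 3 and VHL deprived replicate 2 (limma adjusted p between 0.0518 and 0.167). The largest size belonged to NDUFA5, of the Q module, at -0.51 ± 0.15, which was not called (limma adjusted p = 0.0503). NDUFA5 read 9.66, 10.13 and 10.25 on VHL deprived arrays, against 10.68, 10.61 and 10.27 on VHL control arrays, and its standard error was the largest of the members. It was called under 7 of 21 alternatives, with limma adjusted p between 0.0269 and 0.193. Extremes in the other complexes of VHL cells were CYC1 (0.09) and UQCRC2 (-0.12) in complex III, COXFA4L2 (0.17 ± 0.12) and COX5A (-0.14) in complex IV, and ATP5IF1 (0.09) in complex V. SDHC differed by 0.00 ± 0.05.

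The difference between the responses of the lines, VHL minus Vec, was tested in the fit of all 12 arrays. By limma 0 of 70 members were called, where 0.134% of all genes were called, and 1 member had an unadjusted p under 0.05. That member was ATP5PF (-0.30 ± 0.10, limma adjusted p = 0.362), and the largest size was that of NDUFA5 (-0.43 ± 0.22, limma adjusted p = 0.534). COXFA4L2 differed by 0.19. For 67 members the interval of the difference lay within 0.5 of 0, as it did for 10985 of all 11963 genes. A response called in VHL cells and not in Vec cells is therefore not shown to differ between them.

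**Figure D3:**
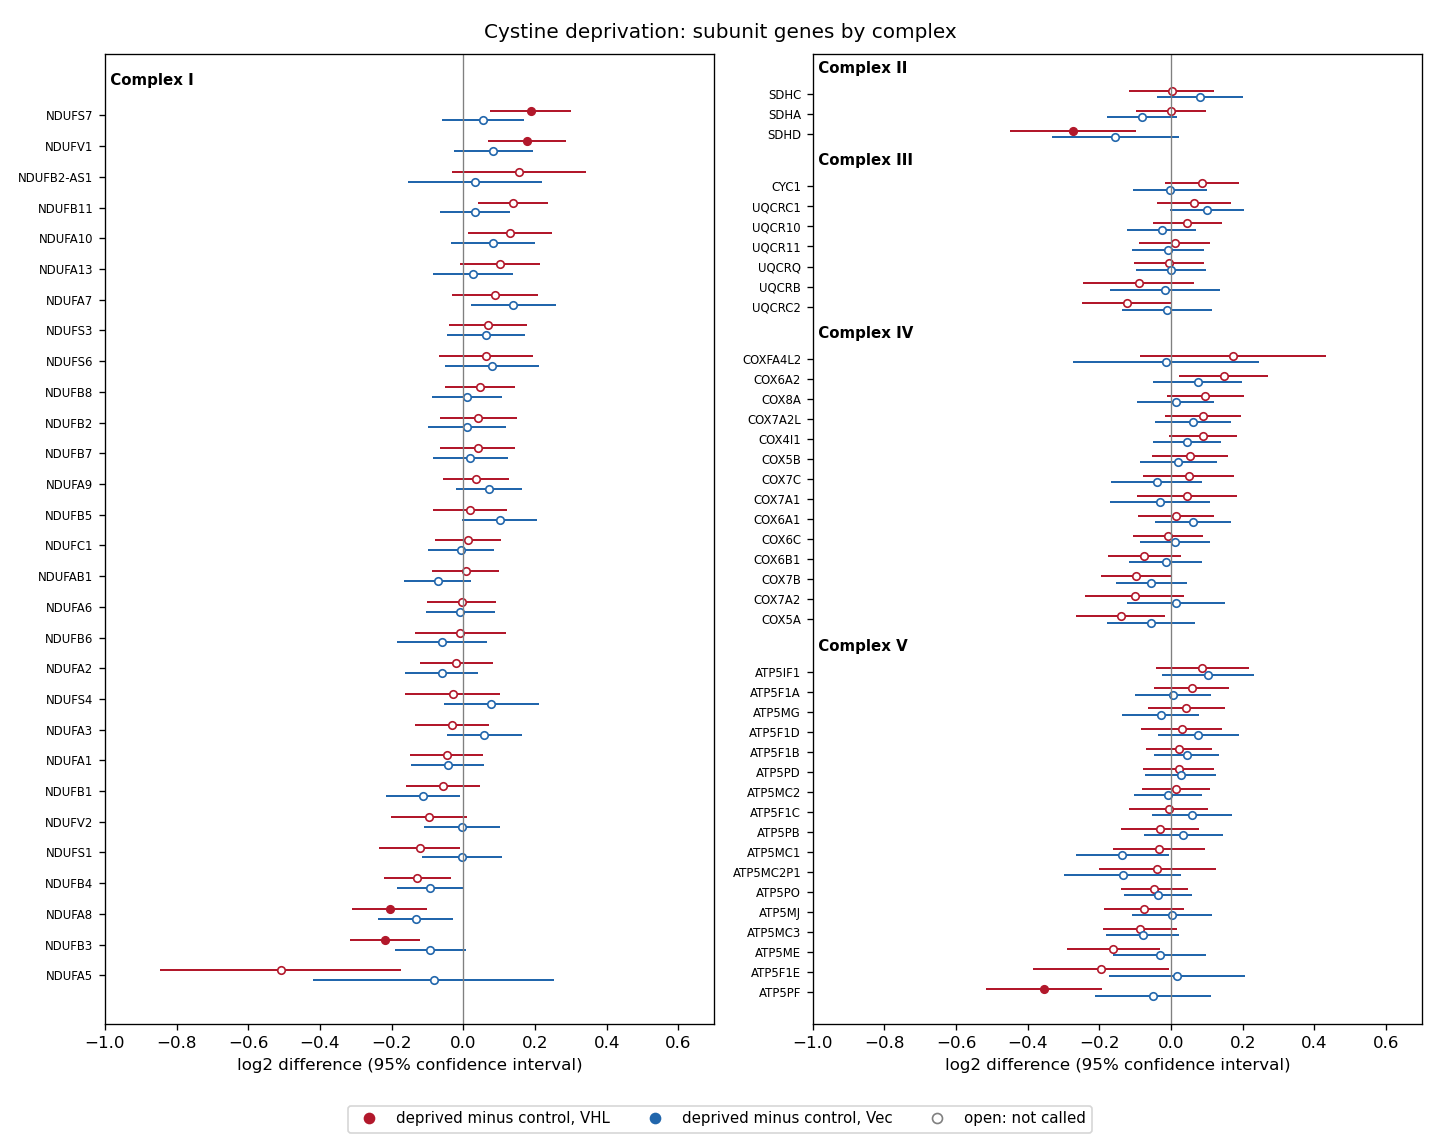
Log2 difference of deprived minus control medium for each member by complex, in VHL cells (upper point) and Vec cells (lower point), with 95% confidence intervals. Filled points are called, 6 in VHL cells and 0 in Vec cells, and most members lie within 0.2 of 0.

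Other genes of the pathway were counted from lists assembled with earlier results of these data known. In the HIF-linked list, 14 genes measured of 16, 13 were lower and 1 higher in VHL cells in each medium, with a median of -1.28 in control medium and -1.05 in deprived medium. That was 92.9% lower and 7.14% higher in each, where 23% of all genes were lower in each medium. The share of all genes higher was 23.1% in control and 24.2% in deprived medium. ADM, a secreted peptide hormone, was lower by -3.56 ± 0.05, EGLN3, an oxygen-sensing hydroxylase, by -3.24 ± 0.06, NDRG1 by -2.28 ± 0.06 and BNIP3, a mitophagy receptor, by -1.94 ± 0.06 in control medium. ISCU, the scaffold on which iron-sulfur clusters are built, was the gene that was higher (0.89). PDK1, a kinase that keeps pyruvate out of the citric acid cycle, was lower by -1.23. In response to deprivation 4 of the 14 were higher and 1 lower in VHL cells, where 6.16% of all genes were higher and 5.48% lower, and 2 were higher and 0 lower in Vec cells, where 4.18% were called in either direction. In VHL cells VEGFA (0.75 ± 0.10), ADM (0.41 ± 0.05), NDRG1 (0.38 ± 0.06) and LONP1 (0.20 ± 0.05) were higher and HIGD1A lower (-0.19 ± 0.05). In Vec cells ANGPTL4 (0.59 ± 0.12) and LONP1 (0.24 ± 0.05) were higher. ANGPTL4 averaged 8.64 on deprived and 8.71 on control arrays of VHL cells and was not called there. None of the 14 was called by limma for the difference of responses, with 5 at an unadjusted p under 0.05.

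Among regulators of mitochondrial biogenesis, 3 of 14 measured were higher and 8 lower in VHL cells in each medium, with medians of -0.16 and -0.21. That was 21.4% higher and 57.1% lower, against 23.1% and 23% of all genes in control medium and 24.2% and 23% in deprived medium. MYC (-0.81), PPRC1 (-0.68), TWNK, the mitochondrial DNA helicase (-0.73), and TFAM, which packages and transcribes mitochondrial DNA (-0.55), were lower in control medium. The higher ones there were PPARGC1A, a coactivator of respiratory genes (1.12), ESRRG, a nuclear receptor (0.70), and TFB2M, a mitochondrial transcription factor (0.41). Assembly factors were split, with 11 higher and 10 lower of 28 measured in control medium and 10 higher and 9 lower in deprived medium, and medians of 0.00. These were 39.3% higher and 35.7% lower in control medium, and 35.7% and 32.1% in deprived medium, beside the same shares of all genes. SURF1, an assembly factor of complex IV, was higher by 0.91 ± 0.05, and LRPPRC, which stabilises mitochondrial mRNAs, by 0.64 ± 0.06. UQCC1 (-0.91 ± 0.05) and TTC19 (-0.58 ± 0.05), both needed for complex III, were lower. In a list of cytochrome c, electron carriers and related genes, 5 of 10 were higher and 2 lower in control medium (50% and 20%). In deprived medium 6 were higher and 1 lower (60% and 10%). AIFM1, a mitochondrial oxidoreductase, was higher by 0.84, SQOR, which oxidises sulfide, by 0.58 and ETFB, of the electron transfer flavoprotein, by 0.45, while ETFDH, its ubiquinone oxidoreductase, was lower (-0.35). CYCS, cytochrome c itself, was not called (0.06 ± 0.05).

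**Figure D4:**
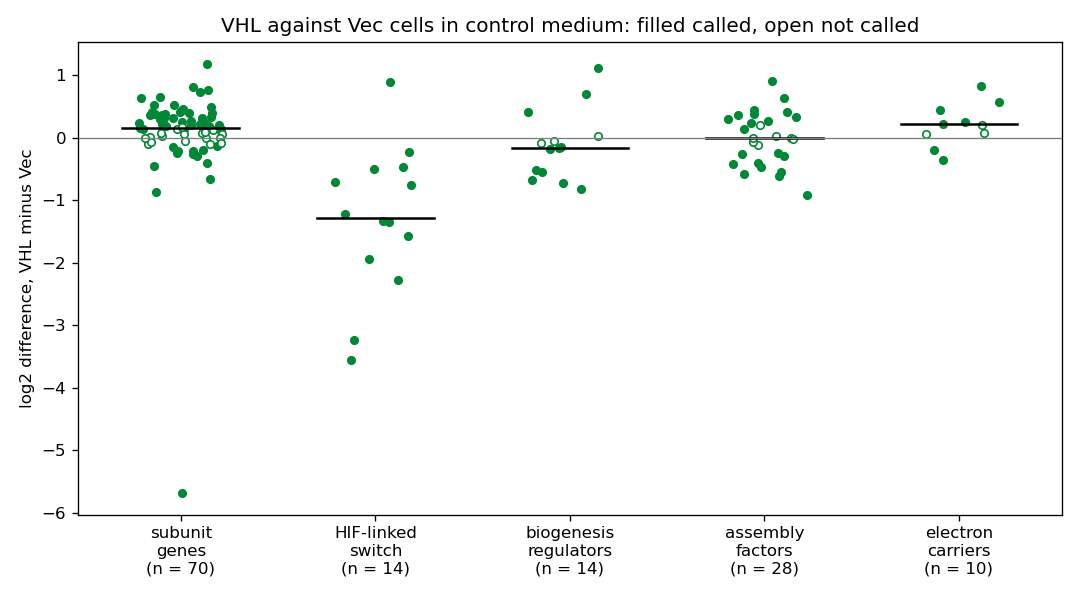
Log2 difference of VHL minus Vec cells in control medium for the 70 subunit genes and for 4 other lists. Each point is a gene, filled if called, the horizontal bar is the list's median, and horizontal scatter carries no value. The median of the subunit genes sits slightly above 0, with 50 of the 70 above 0 and COXFA4L2 the lowest. The HIF-linked genes sit below 0 apart from ISCU.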

How the data were processed

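RNA from 12 RCC4 samples in 4 groups of 3 was measured on single-colour Affymetrix arrays. The deposited values are log2 expression values for 22215 probe sets, a unit read from the values, whose array medians lay between 7.12 and 7.18. How the authors normalized them is not given in the sources used here, and they were used as deposited, without scaling or a filter. Of the probe sets, 19064 name 1 gene, 1043 several and 2108 none in the platform annotation, and symbols were updated through RefSeq (GRCh38.p14). The brightest probe set over the 12 arrays stands for each of 11963 genes. For 37 of 70 members this probe set ends in _x_at or _s_at and may bind other transcripts.

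The 12 arrays were fitted together, with a mean for each group, in limma 3.58.1 (R 4.3.3; 8 residual and 12.7 total degrees of freedom), with two-sided p-values adjusted by Benjamini-Hochberg over all genes and calls at 0.05. The fit was tested on simulated data. Intervals are 95% confidence intervals, and array number limits the precision. Members and lists were chosen with earlier results of these data known. Members named with values are those called, isoform pairs, SDH subunits and the extremes of each complex. Array values are given for members called at a size of at least 0.5, for COX4I1 and the COXFA4 pair, and, chosen after their values were seen, for ATP5PF, NDUFB3 and NDUFA5. Lists name up to 4 called genes by adjusted p. PDK1, ISCU, VEGFA, PPARGC1A, ESRRG, TFB2M and CYCS were added after their values were seen.

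Replicate numbers were checked for pairing: same-numbered arrays had residual correlations of -0.268 to 0.235 (18 pairs), those of other numbers -0.350 to 0.291 (36 pairs), so samples were treated as unpaired. Alternatives were quantile normalization, median centring, dropping the dimmest genes (mean up to 6.47), averaging all probe sets per gene, leaving out _x_at and _s_at probe sets, trend and robust moderation, the compared arrays alone, the replicate block, membership by array symbol, and each array left out in turn.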

Additional observations from a re-analysis of the deposited data

How the results depend on the processing

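Called members in VHL against Vec cells numbered 31 of 48 measured in control medium and 25 of 48 in deprived medium when _x_at and _s_at probe sets were left out, where 22 members have no other probe set, and between 46 and 52, and 45 and 46, when 1 array was left out. Of the calls, 41 of 52 in control and 41 of 46 in deprived medium held under every alternative in which the gene was measured. Deprivation in VHL cells gave 3 called members without those probe sets, 12 with trend and robust moderation, 2 with the compared arrays alone, and between 3 and 8 with 1 array left out. ATP5PF and NDUFB3 kept their call under the 20 alternatives in which they were measured, and neither was measured without _x_at and _s_at probe sets. The cause was not tested. Counts stayed at 0 for deprivation in Vec cells and for the difference of responses. With the replicate block the counts were 0 (deprivation, Vec), 5 (deprivation, VHL), 0 (difference of responses), 52 (VHL against Vec, control) and 46 (deprived). Same-numbered arrays were not shown to be paired.

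Signs turned as follows. Without _x_at and _s_at probe sets, the VHL minus Vec difference in control medium was -0.10 for ATP5F1C, -0.00829 for ATP5MG and 0.22 for NDUFA2, and for ATP5MG it was -0.11 in deprived medium. The ATP5F1C and NDUFA2 values came from dim probe sets, with means of 5.72 and 5.58, under the limit of 6.47. Brighter ATP5F1C probe sets gave 0.36, 0.35 and 0.37 in control medium. Averaging the probe sets, NDUFA2 gave 0.0485 in control medium, and SDHC gave -0.00813 for deprivation in VHL cells, where median centring gave -0.0278. COX7A1 in control medium gave 0.00351 after quantile normalization and 0.0199 after median centring. With 1 array left out, values spanned 0 for COX7A1 (-0.0361 to 0.0451) and COX6A2 (-0.0110 to 0.0744) between the lines in control medium, NDUFA5 in deprived medium (-0.0894 to 0.206), SDHC in deprived VHL cells (-0.0108 to 0.0218) and COXFA4L2 in deprived Vec cells (-0.0258 to 0.00214). Signal lay near or under 6.47 for COXFA4L2 in VHL cells, COX7A1, ATP5MC2P1 and the turned signs of ATP5F1C and NDUFA2. COX6A2 and NDUFB2-AS1, with means of 6.77 and 7.01, lay not far above it. Dim signal may limit these values, which was not tested.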

Other observations

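Of the 70 members, 21 had more than 1 probe set naming them alone. Where a further probe set was dim it could part from the bright one. For NDUFA5 the dim probe set, with a mean of 4.54, differed by -0.23 ± 0.08 between VHL and Vec cells in control medium, against 0.46 for the bright one. For SDHD the dim probe set, with a mean of 4.52, differed by -0.06 ± 0.08. ATP5MG had a further probe set of moderate brightness, with a mean of 9.97, that differed by -0.01 ± 0.06 in control medium, while its 3 brighter probe sets differed by 0.13 to 0.15. For NDUFB8 the 3 probe sets differed by -0.49, -0.45 and -0.36, and for COX5B the 4 probe sets by 0.29, 0.38, 0.31 and 0.22. How the probe sets of a gene differ in the transcripts they bind was not tested.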
